A study of Mus musculus with 12 samples.

Results

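The neuronal intermediate filament genes, the neuronal beta tubulin and the stathmins were followed in mouse colon after ablation of enteric neurons. The genes were picked out of the table by symbol: the filament genes Prph (peripherin), Nefl, Nefm and Nefh (the light, medium and heavy neurofilament chains) and Ina (alpha-internexin), the beta-III tubulin gene Tubb3, and the stathmins Stmn1, Stmn2, Stmn3 and Stmn4. All 10 symbols were found, each once, among the 27179 genes of the deposited expression table.

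RNA sequencing was carried out on full-thickness pieces of colon cut at the place of injection, from 5 control and 7 ablated libraries. The ablated animals carried BAF53b-Cre together with R26-iDTR, a diphtheria toxin receptor at the Rosa26 locus that Cre recombination switches on, and BAF53b is a chromatin remodelling subunit whose promoter is used to drive Cre in neurons. The controls were littermates with R26-iDTR but no Cre, labelled Cre-negative. Animals of both groups underwent laparotomy under isoflurane and an injection of 4 μL of diphtheria toxin at 0.33 ng per μL with 10% India ink into the muscle layer, so toxin, ink and surgery were common to both. The receptor is thus present in any cell with a history of BAF53b-Cre activity. Age, sex and the time between toxin and dissection are not in the labels used here, and nothing states that each library came from a separate animal, so p-values cover only how these libraries vary, which may be technical in part.

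Neurons hold their axons open with neurofilaments, which are heteropolymers of the light, medium and heavy chains with alpha-internexin or, in peripheral neurons, with peripherin. Microtubules of neurons contain beta-III tubulin, for which antibodies are a standard stain of enteric ganglia and their axons. Stathmins bind tubulin dimers and promote microtubule disassembly. Stmn1 is made in many dividing and immature cells, while Stmn2 (SCG10), Stmn3 (SCLIP) and Stmn4 (RB3) are anchored to membranes and largely neuronal.

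Levels are given as TPM, the authors' share of each library's transcripts after scaling by gene length, which can be compared between genes. Libraries held 13.4 to 26.9 M reads, as recovered from the TPM values, and 1 read on a 1-kilobase transcript was worth 0.0697 to 0.129 TPM. The library labelled ablated 1 was the shallowest, and 18.7% of its reads came from mitochondrial genes, against 3.56% to 10.4% in the other 11 libraries. Summed TPM of 7 enteric neuron markers was 42.7 to 105 in control and 9.61 to 19.6 in ablated libraries. Of the 7, 6 fell, beside 1.01% of all genes tested. Chrna3, 1 of these 6, reached the 0.5 TPM needed for testing in the 5 controls only. Its difference was thus partly a condition of its being tested. No marker of enteric glia and Schwann cells passed the test (0 of 8), but the log2 fold change was negative for 7 of the 8 (median -0.52). Among these were Fabp7 at -1.02 (limma, adjusted p = 0.0536), S100b at -1.13 (limma, adjusted p = 0.0703) and Foxd3 at -0.85 (limma, adjusted p = 0.0972), and Foxd3 was lower in all ablated than in all control libraries. Their summed TPM, 39.3 to 53.0 in control and 28.7 to 101 in ablated libraries, was mostly Erbb3, the 1 marker with a positive value (29.8 ± 7.13 TPM in control and 50.1 ± 31.6 TPM in ablated colon). The part of glia in the results was not tested. In bulk tissue, fewer cells of a type and less RNA per cell cannot be told apart.

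Of the 9 genes that could be tested, 6 fell: Prph, Ina, Nefl, Tubb3, Stmn2 and Stmn3. None rose, at an adjusted or an unadjusted p under 0.05 by limma, or by voom on the recovered reads. Over all 16164 genes tested, 1.01% passed as lower and 0.421% as higher, 1.43% in all. The median log2 fold change of the 9 tested genes was -1.39, beside 0.03 over all genes. A gene was tested when it reached 0.5 TPM in at least 5 libraries, which Nefh did not, and Ina reached that minimum in the 5 controls only, so its difference was partly a condition of its being tested. Control and ablated libraries did not overlap for 7 of the 10 genes, all 7 with the ablated libraries below, and 6 of those 7 were among the tested genes. That order was seen in 1.55% of all genes tested, and the opposite one in 1.33%. Without the shallowest library of each group, an alternative chosen after seeing the data, 4 genes passed as lower. Nefl then did not pass (limma, adjusted p = 0.0839), and Ina was not tested, because too few libraries reached the minimum.

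**Figure D1:**
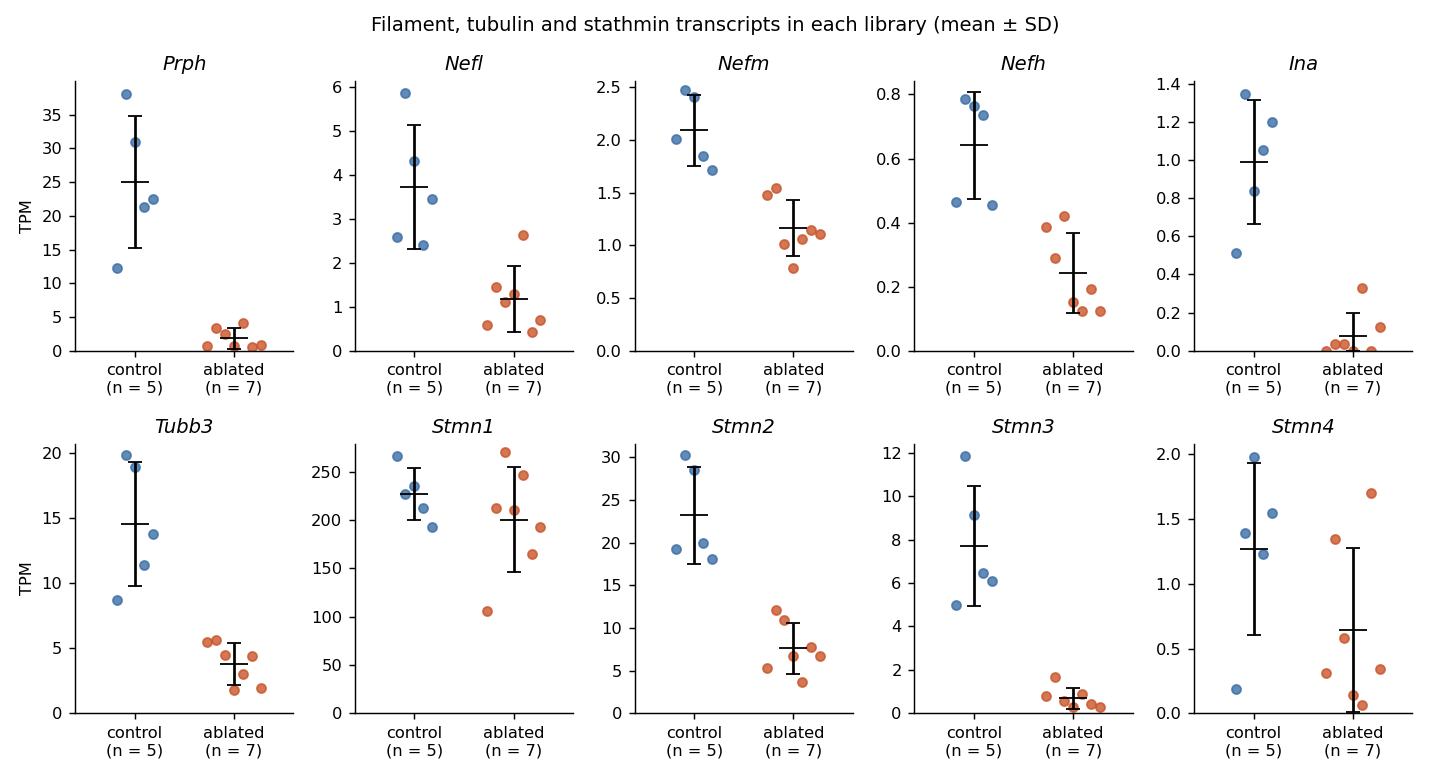
TPM of the 10 genes in each control library (blue, n = 5) and each ablated library (orange, n = 7), with the group mean and SD; every panel has its own axis from 0, where an error bar that would pass below 0 is cut. Points of the groups do not overlap for Prph, Nefm, Nefh, Ina, Tubb3, Stmn2 and Stmn3, and they overlap for Nefl, Stmn1 and Stmn4.

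The start-proximal sequence is shown for Prph, Stmn3 and Ina, the 3 genes with the lowest share of the control level in ablated colon. Each run is the 250 bases before the RefSeq start on GRCm38.p6, in the direction of the gene: chr15:99054924-99055173 on the plus strand for Prph, chr2:181314501-181314750 on the minus strand for Stmn3, and chr19:47014431-47014680 on the plus strand for Ina. The windows of Prph and Stmn3 overlap no annotated gene, and that of Ina lies in an intron of Nt5c2, which is transcribed from the opposite strand. Capitals mark matches to a TATA box, a GC box or a CCAAT box on either strand.
Prph: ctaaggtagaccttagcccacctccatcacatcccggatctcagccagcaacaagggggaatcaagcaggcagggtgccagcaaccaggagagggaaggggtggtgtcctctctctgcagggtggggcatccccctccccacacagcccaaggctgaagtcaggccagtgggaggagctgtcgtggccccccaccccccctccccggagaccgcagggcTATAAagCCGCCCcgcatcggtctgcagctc
Stmn3: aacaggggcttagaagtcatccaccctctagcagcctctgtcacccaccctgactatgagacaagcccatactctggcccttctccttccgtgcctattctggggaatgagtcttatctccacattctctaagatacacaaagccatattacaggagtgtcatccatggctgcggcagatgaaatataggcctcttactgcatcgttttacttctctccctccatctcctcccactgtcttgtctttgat
Ina: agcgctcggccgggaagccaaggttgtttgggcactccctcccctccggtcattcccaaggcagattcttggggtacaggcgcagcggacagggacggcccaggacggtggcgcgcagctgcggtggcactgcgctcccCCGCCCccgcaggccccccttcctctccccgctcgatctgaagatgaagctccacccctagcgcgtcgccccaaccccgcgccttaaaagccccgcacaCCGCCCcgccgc

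Prph carried TATAA 31 bases before its start and the reverse complement of GGGCGG 24 bases before it. Ina carried the reverse complement of GGGCGG 111 and 12 bases before its start, and Stmn3 carried none of these motifs. A promoter was also listed for Tubb3, but its window contains the first bases of the annotated gene and is not printed. Tubb3 had TATAA 30 bases before the RefSeq start and the reverse complement of TATAA at 31 bases. It also had GGGCGG at 138 and 46 bases, and the reverse complement of CCAAT at 77 bases. TTCAGCACC, the left part of the RE1 element bound by the neuronal repressor REST, was matched in none of the 4 windows. Searched the same way on both strands, TATAA was present in 23.5%, GGGCGG in 32.9% and CCAAT in 34.5% of 27025 promoters of this length, and TTCAGCACC in 0.285%. GC content was 65.2% for Prph, 70.8% for Ina, 68% for Tubb3 and 48.8% for Stmn3, against a median of 52% over all promoters. A match describes the letters only, and its absence says nothing of the factor.

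Among the filament genes, Prph was by far the most abundant in control colon and, with a 13.8-fold difference between the means, had the largest fold of the 5. Prph (15:99055174-99058978 on mm10, plus strand) encodes peripherin, the filament protein of peripheral and enteric neurons. It was measured at 12.3, 38.1, 30.9, 21.3 and 22.5 TPM in controls 1 to 5, and at 0.523 TPM in the lowest, 0.829 in the median and 4.14 in the highest of the 7 ablated libraries. All ablated libraries lay below the lowest control, and the highest, ablated 5 with 4.14 TPM and ablated 2 with 3.43 TPM, stood at several times the level of the lowest. The mean was 25.0 ± 9.86 TPM (SD, n = 5) in control and 1.82 ± 1.51 TPM (SD, n = 7) in ablated colon, which is 7.26% of the control level. The log2 fold change was -3.63 (95% interval -4.55 to -2.71; limma, adjusted p = 0.000706), and it rests on 2913 reads in control and 287 in ablated libraries.

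Ina (19:47014698-47025327, plus strand), which encodes alpha-internexin, was scarce, and ablated colon kept about as small a part of it as of Prph on the TPM scale. Controls 1 to 5 held 0.510, 1.35, 0.839, 1.05 and 1.20 TPM. Among the 7 ablated libraries, 3 were at 0, the median was 0.0352 TPM and the highest, ablated 5, was 0.329 TPM. No ablated library reached the lowest control, and the 7 together held 15 reads against 139 in the controls. The mean was 0.990 ± 0.327 TPM (SD, n = 5) against 0.0750 ± 0.120 TPM (SD, n = 7), 7.58% of control. The log2 fold change on log2(TPM + 0.5) was -1.37 (-1.78 to -0.95; limma, adjusted p = 0.00226), a scale that understates the change of so low a gene: it was -2.79 with 0.1 in place of 0.5. The start of Ina overlaps Nt5c2 on the opposite strand.

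The 3 neurofilament chains stood at 31.4% to 55.5% of their control level. Nefl (14:68083863-68089095, plus strand) was measured at 2.60, 5.87, 4.33, 2.42 and 3.45 TPM in controls 1 to 5, and at 0.416, 1.11 and 2.65 TPM in the lowest, median and highest ablated library. The groups overlapped through 1 library: ablated 5 lay above controls 1 and 4, and the other 6 lay below every control. Mean Nefl was 3.73 ± 1.42 TPM (SD, n = 5) in control and 1.17 ± 0.755 TPM (SD, n = 7) in ablated colon, 31.4% of control, with a log2 fold change of -1.39 (-2.04 to -0.74; limma, adjusted p = 0.0375). The call was lost when any 1 control or ablated 1, 3, 4, 6 or 7 was left out, with adjusted p then between 0.0511 and 0.158.

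Nefm (14:68082590-68124846, minus strand) was measured at 2.01, 2.47, 2.41, 1.85 and 1.71 TPM in controls 1 to 5, and at 0.783, 1.11 and 1.54 TPM in the lowest, median and highest ablated library. The groups did not overlap, and the gap between the highest ablated library (ablated 2) and the lowest control (control 5) was small. Mean Nefm was 2.09 ± 0.337 TPM (SD, n = 5) against 1.16 ± 0.266 TPM (SD, n = 7), 55.5% of control. It did not pass the test over all genes (log2 fold change -0.65, -0.98 to -0.32; limma, adjusted p = 0.0583), but passed without ablated 1 (adjusted p = 0.0332) or without ablated 2 (adjusted p = 0.0485). The annotated Nefm locus spans Nefl on the opposite strand, and the strand setting of the authors' counting is not given in the sources used here, so reads of the 2 genes may have been shared between them.

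Nefh (11:4938754-4948064, minus strand), the heavy chain of mature large axons, was the lowest of the 10 genes in control colon. Its level was 0.464, 0.785, 0.763, 0.737 and 0.455 TPM in controls 1 to 5, and 0.123, 0.192 and 0.420 TPM in the lowest, median and highest ablated library. The groups did not overlap, although ablated 3 came close to control 5. Mean Nefh was 0.641 ± 0.167 TPM (SD, n = 5) against 0.242 ± 0.125 TPM (SD, n = 7), 37.7% of control, on 157 and 78 reads. In a fit of all 22842 genes above 0, where 1.2% passed as lower, its log2 fold change was -0.63 (-0.92 to -0.33; limma, adjusted p = 0.0381).

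Tubb3 (8:123411424-123422015, plus strand) encodes the beta tubulin that marks neurons. It stood at 8.74, 19.8, 18.9, 11.4 and 13.7 TPM in controls 1 to 5, and at 1.77, 4.37 and 5.63 TPM in the lowest, median and highest ablated library. Every ablated library was below control 1, the lowest control. Mean Tubb3 was 14.5 ± 4.77 TPM (SD, n = 5) in control and 3.81 ± 1.59 TPM (SD, n = 7) in ablated colon, 26.2% of control (log2 fold change -1.84, -2.48 to -1.20; limma, adjusted p = 0.00577). The gene lies within the readthrough locus Gm20388, and reads common to both could not be assigned from the files.

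The other beta tubulins were not called, and Tubb1 was too low to be tested. Summed over the 8 Tubb genes, TPM was 540 ± 50.2 (SD, n = 5) in control and 590 ± 141 (SD, n = 7) in ablated colon, most of it Tubb4b, the broadly made isotype of many tissues, at 396 ± 44.0 and 449 ± 153 TPM. The share of Tubb3 in this sum was 2.69 ± 0.879% in control and 0.746 ± 0.521% in ablated libraries (exact permutation test, two-sided, adjusted p = 0.00295 over 7 shares). Tubb2b, another isotype enriched in neurons, had 3.37 ± 0.864 TPM in control and 1.63 ± 0.479 TPM in ablated colon, with every ablated library below every control, and missed the threshold (limma, adjusted p = 0.0635). Tubb2b passed by limma with median-of-ratios scaling (adjusted p = 0.0431), the epithelium score (0.0136) or library weights (0.0153). It also passed by voom on recovered reads (0.0381) and, by limma, without the shallowest library of each group (0.0287). Its highest adjusted p over the alternatives was 0.232, and leaving out any single library did not change the call. Tubb4a passed with library weights only (limma, adjusted p = 0.0360).

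The stathmins differed from one another. Stmn3 had the smallest share of its control level left, Stmn2 also fell, and Stmn1 and Stmn4 did not pass. Stmn3 (2:181306459-181314500, minus strand), the membrane-bound stathmin SCLIP, was measured at 4.997, 11.8, 9.13, 6.45 and 6.10 TPM in controls 1 to 5, and at 0.307, 0.562 and 1.68 TPM in the lowest, median and highest ablated library. The groups were far apart: the highest ablated library, ablated 2, stood well below the lowest control. Mean Stmn3 was 7.70 ± 2.76 TPM (SD, n = 5) against 0.709 ± 0.483 TPM (SD, n = 7), 9.20% of control, on 541 and 66 reads. Its log2 fold change was -2.78 (-3.37 to -2.20; limma, adjusted p = 0.000194).

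Stmn2 (3:8509360-8561606, plus strand) encodes SCG10, a growth cone protein needed for axon maintenance and regrowth. It was the most abundant neuronal stathmin, with 19.2, 30.3, 28.5, 19.9 and 18.1 TPM in controls 1 to 5, and 3.67, 6.78 and 12.1 TPM in the lowest, median and highest ablated library. The groups did not overlap, and ablated 2 and ablated 3 were the highest of their group. Mean Stmn2 was 23.2 ± 5.72 TPM (SD, n = 5) against 7.61 ± 2.996 TPM (SD, n = 7), 32.8% of control (log2 fold change -1.60, -2.16 to -1.05; limma, adjusted p = 0.00553).

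Stmn4 (14:66344296-66361680, plus strand), the stathmin RB3 of neurons, was low in both groups. Controls 1 to 5 held 0.188, 1.39, 1.98, 1.23 and 1.54 TPM, and the ablated libraries 0.0674 TPM at the lowest, 0.342 at the median and 1.70 at the highest. Control 1 was the lowest control and lay below 5 of the ablated libraries, while ablated 6 exceeded 4 of the controls. Mean Stmn4 was 1.27 ± 0.664 TPM (SD, n = 5) against 0.642 ± 0.632 TPM (SD, n = 7), with a log2 fold change of -0.68 (-1.53 to 0.16; limma, adjusted p = 0.557). It rests on 99 reads in control and 71 in ablated libraries.

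Stmn1 (4:134468320-134473843, plus strand), the cytosolic stathmin also known as oncoprotein 18, was the most abundant of the 10 genes. It was measured at 266, 227, 235, 213 and 193 TPM in controls 1 to 5, and at 106, 210 and 270 TPM in the lowest, median and highest ablated library. The groups overlapped over most of their range, with ablated 1 below all other libraries and ablated 3 above all others. Mean Stmn1 was 227 ± 27.1 TPM (SD, n = 5) against 200 ± 54.1 TPM (SD, n = 7), a log2 fold change of -0.22 (-0.65 to 0.20; limma, adjusted p = 0.756). Without ablated 1 the log2 fold change was -0.08 (adjusted p = 0.811).

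Of 12 cycling cell markers none passed, and their summed TPM was 293 to 359 in control and 171 to 446 in ablated libraries, with ablated 1 the lowest at 171. Of 9 lymphoid markers none passed, and the log2 fold change was negative for 8 of them (median -1.07). Their sum was 501 to 806 TPM in control and 87.6 to 498 TPM in ablated libraries, most of it Jchain of plasma cells (555 ± 113 and 220 ± 159 TPM; limma, adjusted p = 0.126), while the T cell genes Cd3e, Cd3g and Cd2 had means of 0.870 to 2.84 TPM. No marker of either list was at 0 in all libraries, and their part in the Stmn1 values was not tested.

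**Figure D2:**
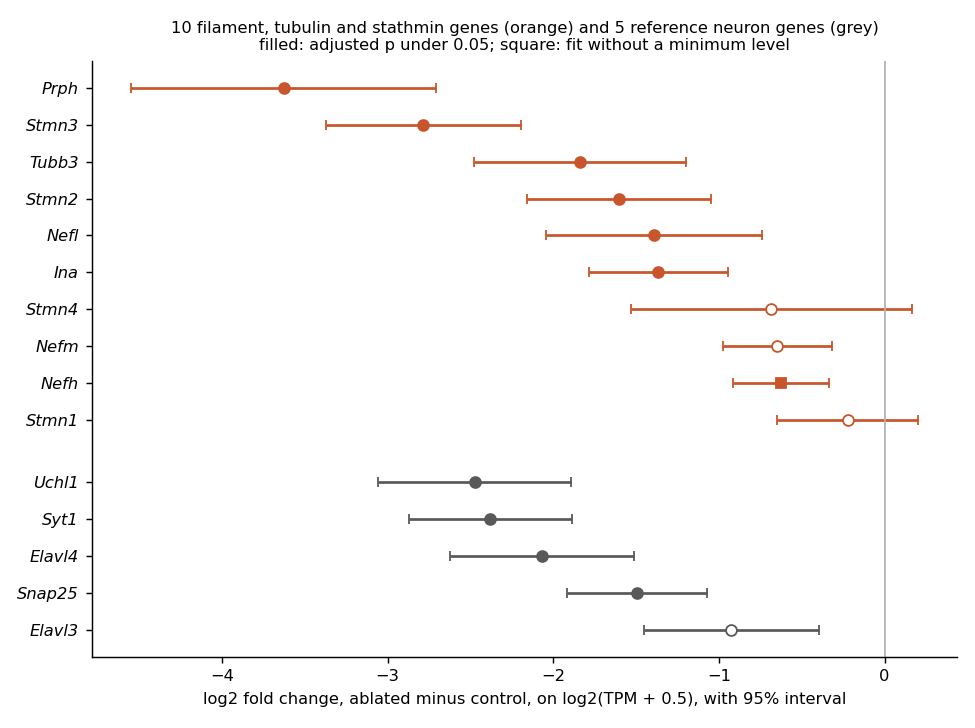
Log2 fold change of ablated against control colon on log2(TPM + 0.5), with 95% intervals, for the 10 filament, tubulin and stathmin genes (orange) and 5 reference neuron genes (grey); filled symbols passed an adjusted p of 0.05, and the square (Nefh) comes from the fit without a minimum. Prph at -3.63 and Stmn3 at -2.78 lie farthest to the left, and the intervals of Stmn4 and Stmn1 include 0.

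The order of the 10 genes by mean level changed between the groups. In control colon it ran Stmn1, Prph, Stmn2, Tubb3, Stmn3, Nefl, Nefm, Stmn4, Ina, Nefh. In ablated colon it ran Stmn1, Stmn2, Tubb3, Prph, Nefl, Nefm, Stmn3, Stmn4, Nefh, Ina. In each group the ranges of TPM over libraries were apart only between Stmn1 and the gene after it, and all other neighbours overlapped. Within single libraries some orders were steadier: Stmn2 exceeded Tubb3 in 5 of 5 controls and Prph exceeded Stmn2 in 4 of 5, whereas Nefl exceeded Nefm in 5 of 5 controls and in 3 of 7 ablated libraries.

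Whether genes of a family changed by different amounts was tested on their log2 ratio within each library, by a two-sided exact permutation test of the group labels. The smallest p it can give is 0.00126, and adjustment was over 12 pairs, of which 9 passed. Nefh entered no pair. The ratio of Prph to Nefl fell from 2.56 ± 0.316 in control to 0.32 ± 0.555 in ablated libraries on the log2 scale, and that of Prph to Nefm from 3.21 ± 0.514 to 0.23 ± 0.915. Both differences, -2.24 and -2.98, separated 7 of 7 ablated libraries from all controls (exact permutation test, adjusted p = 0.00253). Peripherin transcripts thus fell relative to those of the light and the medium chain.

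Ratios to Ina were less firm, because its level lay under the added constant in ablated colon. The ratio of Prph to Ina differed by -2.26 (exact permutation test, adjusted p = 0.00253), but by -1.23 with a constant of 0.1 (adjusted p = 0.0370), and on the TPM scale the genes kept 7.26% and 7.58% of control. The ratio of Nefm to Ina differed by 0.72 (exact permutation test, adjusted p = 0.0202; 0.0545 with a constant of 1). The ratio of Nefl to Ina differed by -0.03 (adjusted p = 0.904) and by 1.07 with a constant of 0.1 (adjusted p = 0.0265), so even its direction hung on the constant. For Nefl against Nefm the difference was -0.74 and did not pass (exact permutation test, adjusted p = 0.0652); it passed without ablated 5 (adjusted p = 0.0173).

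Among the stathmins, Stmn1 rose relative to Stmn2 by 1.38 and relative to Stmn3 by 2.56 on the log2 scale, with 7 of 7 ablated libraries above all controls (exact permutation test, adjusted p = 0.00253 for each). Stmn3 fell more than Stmn2: the log2 ratio of Stmn2 to Stmn3 went from 1.56 ± 0.190 to 2.74 ± 0.671, with 6 of 7 ablated libraries above all controls (exact permutation test, adjusted p = 0.0108). The ratio of Stmn3 to Stmn4 differed by -2.10 (adjusted p = 0.00253). That of Stmn2 to Stmn4 differed by -0.92 (adjusted p = 0.0170), which was lost with a constant of 0.1 (adjusted p = 0.351) or without control 1 (adjusted p = 0.0525). For Stmn1 against Stmn4 the difference of 0.46 did not pass (adjusted p = 0.439).

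**Figure D3:**
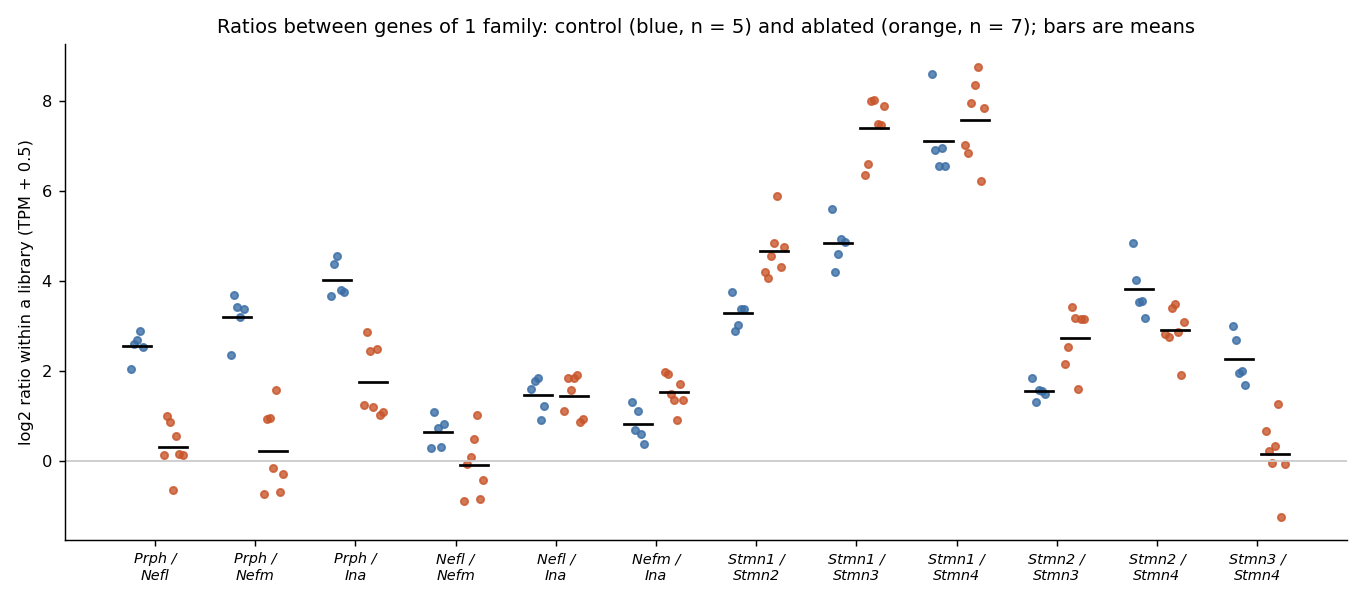
Log2 ratio of TPM + 0.5 between 2 genes of a family within each control library (blue, n = 5) and each ablated library (orange, n = 7), with bars at the group means. Groups are apart for Prph over Nefl, Nefm and Ina, for Stmn1 over Stmn2 and Stmn3, and for Stmn3 over Stmn4.

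The make-up of the filament family shifted away from peripherin. Summed TPM of the 5 filament genes was 32.5 ± 11.8 (SD, n = 5) in control and 4.46 ± 2.30 (SD, n = 7) in ablated colon, a 7.27-fold difference. Prph made up 68.8% to 78.8% of this sum in control and 22.1% to 50.8% in ablated libraries, with means of 76.1 ± 4.16% and 35.1 ± 13.9% (exact permutation test, adjusted p = 0.00295 over 7 shares). The groups did not overlap, and ablated libraries 2, 3 and 5 kept a higher Prph share than the other 4.

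The share of Nefm rose from 7.01 ± 2.44% to 31.2 ± 14.3% and that of Nefl from 11.6 ± 2.04% to 25.9 ± 9.59% (exact permutation test, adjusted p = 0.00707 for each). That of Nefh rose from 2.08 ± 0.539% to 6.36 ± 3.60% (exact permutation test, adjusted p = 0.0295), a call lost when any 1 control was left out (adjusted p 0.0566 to 0.0601). Shares add up to the whole, so these rises in share stand beside lower TPM of each gene. The share of Ina was 3.14 ± 0.812% and 1.36 ± 1.92% and did not pass (exact permutation test, adjusted p = 0.0783; 0.0390 without ablated 5 and 0.0202 without ablated 7).

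Stmn1 made up 87.6 ± 2.94% of the 4 stathmins in control and 95.6 ± 1.66% in ablated colon, with no overlap (exact permutation test, adjusted p = 0.00295). The stathmin sum was 259 ± 28.8 TPM (SD, n = 5) against 209 ± 55.2 TPM (SD, n = 7), and without Stmn1 it was 32.2 ± 8.74 TPM against 8.96 ± 3.65 TPM, a 3.59-fold difference.

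**Figure D4:**
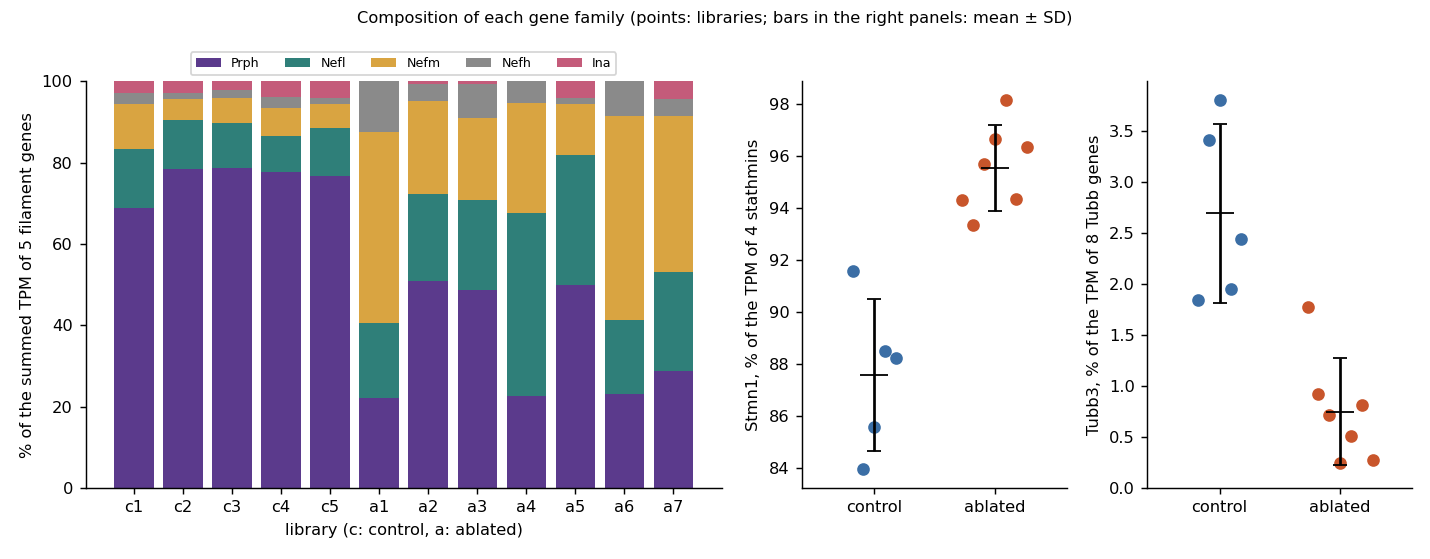
Left, percent of the summed TPM of 5 filament genes in each control (c1 to c5) and ablated (a1 to a7) library; right, the percent of Stmn1 among 4 stathmins (axis not from 0) and of Tubb3 among 8 beta tubulin genes, as points per library with mean and SD. Prph takes at least 68.8% of the filament sum in each control and at most 50.8% in each ablated library.

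The genes were then set against the mean of 5 reference neuron genes within each library: the RNA-binding Elavl3 and Elavl4, the ubiquitin hydrolase Uchl1, and the synaptic Snap25 and Syt1. Of these, 4 of 5 passed as lower, and Elavl3 did not (limma, adjusted p = 0.0988; 0.0112 without ablated 1). Differences in the log2 ratio to this mean were tested by exact permutation and adjusted over the 9 tested genes. Prph lost more than the reference mean, by -1.76 with 7 of 7 ablated libraries below all controls. So did Stmn3, by -0.92 with 6 of 7 (exact permutation test, adjusted p = 0.00852 for each). The comparison is with the mean only, because on the TPM scale the reference genes kept from 9.05% (Syt1) to 37.3% (Elavl3) of control. Stmn3 kept 9.20%, about as much as Syt1, and Prph kept 7.26%, less than each of the 5. Of the neuron markers outside the reference, Chrna3 kept 3.98% and Ret 21.1%.

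Nefm was higher relative to the reference, by 1.22 with 7 of 7 ablated libraries above all controls, as did Stmn1, by 1.65 with 6 of 7 (exact permutation test, adjusted p = 0.00852 for each). Stmn4 also differed, by 1.19 (adjusted p = 0.0295), but not with a constant of 0.1 (adjusted p = 0.117), without control 1 (adjusted p = 0.0764) or without control 2 (adjusted p = 0.0545). Tubb3 differed by 0.03 (adjusted p = 0.855) and Stmn2 by 0.27 (adjusted p = 0.440), neither of which passed. The sign for Tubb3 turned to -0.12 with a constant of 1, and with 0.1 the difference was 0.36 (adjusted p = 0.0841). Nefl differed by 0.48 and did not pass (adjusted p = 0.198). Ina differed by 0.50 (adjusted p = 0.0777), a value that was 0.71 with a constant of 1 (adjusted p = 0.00568) and -0.47 with 0.1, and it passed without control 4 (adjusted p = 0.0364) or ablated 1 (adjusted p = 0.0357).

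The 6 genes that fell did not rank the ablated libraries alike. Ablated 5 was the highest of the 7 for Prph, Nefl and Ina and the lowest for Stmn2, while ablated 2 was the highest for Tubb3, Stmn2 and Stmn3. After subtraction of the group means, Pearson r of log2(TPM + 0.5) over the 12 libraries ran from -0.28 to 0.83 over the 15 pairs of these genes, with a median of 0.45. It was highest for Prph with Nefl (0.83), followed by Tubb3 with Stmn3 (0.77) and Prph with Stmn3 (0.77). All values of a library share its depth and its mix of tissue, and these correlations are a description.

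By the same measure, each of Prph, Nefl, Nefm, Tubb3, Stmn1, Stmn2 and Stmn3 was compared with 14554 genes of at least 1 TPM in mean. The highest of so many correlations over 12 libraries can be high by chance, so they too are a description. The most alike genes were listed. For Prph these were Calb2 (0.94), the calretinin gene of enteric neuron subtypes, Galr2 (0.92) and Grp (0.91), and for Nefl Calb2 (0.93), Scg3 (0.90) and Ret (0.88). For Stmn3 they included Gnao1 (0.93) and Sncg (0.91), and for Tubb3 Dmtn (0.98), Snhg11 (0.96) and Arfrp1 (0.95). Nefm was most like Cdc25c (0.92), 2010110K18Rik (0.91) and Gnao1 (0.91), Stmn2 was most like Ism1 (0.93), Ms4a4d (0.92) and Syce3 (0.92), and Stmn1 was most like Cyp2j9 (0.97), Trmt10b (0.96) and Prelp (0.96). Calb2, Grp, Scg3, Ret, Snhg11 and Sncg fell between the groups, whereas the genes nearest to Nefm, Stmn1 and Stmn2 did not pass. Neither did Galr2 near Prph (limma, adjusted p = 0.0788), nor Gnao1 near Stmn3 (limma, adjusted p = 0.213). Near Tubb3, Dmtn (limma, adjusted p = 0.123) and Arfrp1 (limma, adjusted p = 0.874) did not pass.

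The wider cytoskeleton was taken from 7 lists. Of 19 tested intermediate filament and linker genes of other cells, 1 rose and none fell. The median log2 fold change was 0.28, against 0.03 over all genes, with 15 values positive and 4 negative. Among the negative was Gfap of glia, at 1.85 ± 0.648 TPM in control and 0.908 ± 0.473 TPM in ablated colon. Its log2 fold change was -0.77 and did not pass (limma, adjusted p = 0.216). The one that rose was Dst, the cytoskeletal linker dystonin, from 12.3 ± 1.51 TPM (SD, n = 5) to 18.7 ± 2.77 TPM (SD, n = 7), 1.52-fold (limma, adjusted p = 0.0431), and the call was lost when any 1 control or any of ablated 2 to 7 was left out. Of 11 tested alpha and beta tubulins other than Tubb3 none passed (median 0.10), and Tubb2b and Tubb4a had the smallest p (adjusted p = 0.0635 and 0.373 by limma).

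Of 26 microtubule-associated protein genes 1 fell (median 0.03): Map7d2, of a family that recruits kinesin to microtubules, went from 1.004 ± 0.437 TPM (SD, n = 5) to 0.159 ± 0.103 TPM (SD, n = 7; limma, adjusted p = 0.00844). Map7d2 reached the minimum level in the 5 controls only, so its difference was partly a condition of its being tested. Of 26 genes of tubulin modification, folding and severing none passed (median -0.01). Those with the smallest p were the deglutamylase gene Agtpbp1, at 7.48 ± 1.10 and 5.66 ± 1.36 TPM (limma, adjusted p = 0.363), and the glutamylase gene Ttll4, at 4.25 ± 0.731 and 5.61 ± 1.08 TPM (limma, adjusted p = 0.383). Of 14 axonal kinesin genes 1 fell (median 0.05), the neuronal motor Kif5a, from 3.38 ± 1.11 to 1.09 ± 0.427 TPM (limma, adjusted p = 0.0130), a call lost without control 2, 3 or 5 (adjusted p 0.0519 to 0.0711).

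Of 23 tested genes in the list for axon growth and growth cones, 5 fell and none rose (median 0.04). The list and the 5 include Scg2, which is a granin gene and not a cytoskeletal one. Scg2, the granin secretogranin II, fell from 24.7 ± 7.38 to 5.69 ± 2.93 TPM, 4.33-fold (limma, adjusted p = 0.00350). Gap43, the growth cone phosphoprotein, fell from 16.3 ± 5.55 to 5.50 ± 2.29 TPM, 2.96-fold (limma, adjusted p = 0.0140; not without control 2 or 3). Ank2, the ankyrin of axonal membranes, fell 3.22-fold (limma, adjusted p = 0.0104, but not without control 3). Dpysl5, a collapsin response mediator, fell 4.04-fold (limma, adjusted p = 0.0131). It reached the minimum level in the 5 controls only, so its difference was partly a condition of its being tested. The fifth was Cdk5r2, an activator of the kinase CDK5 that phosphorylates neurofilaments, named after its values were seen. Cdk5r2 fell 2.72-fold (limma, adjusted p = 0.0316). Over the alternative settings its adjusted p by limma ran from 0.00682 to 0.256, so the call did not hold in all of them.

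Of 14 genes of stathmin kinases and their cell cycle partners 1 fell (median 0.05), Mapk10, the neuronal JNK3, from 0.878 ± 0.398 to 0.139 ± 0.0842 TPM, 6.33-fold (limma, adjusted p = 0.0111). Mapk10, like Map7d2 and Dpysl5, reached the minimum level in the 5 controls only. The differences of these genes were thus partly a condition of their being tested.

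**Figure D5:**
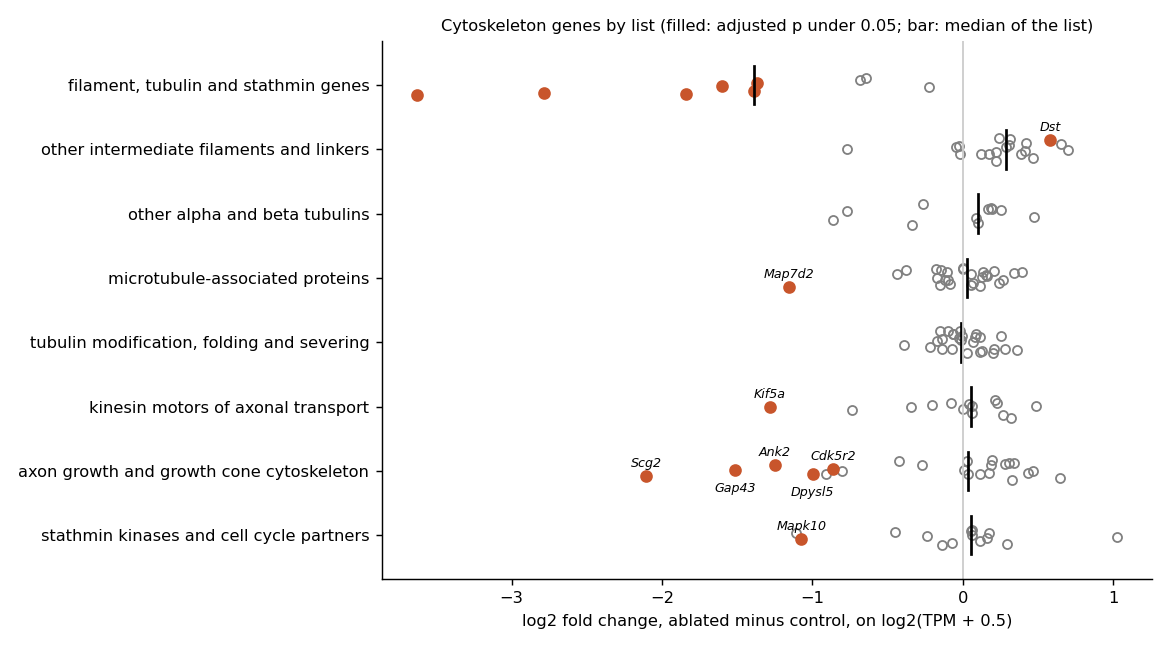
Log2 fold change (ablated minus control, on log2(TPM + 0.5)) of each tested gene, by list; filled points passed an adjusted p of 0.05 and bars mark each list's median. The 9 tested filament, tubulin and stathmin genes have a median of -1.39, and the medians of the 7 other lists lie between -0.01 and 0.28.

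In the authors' deposited table of their own edgeR comparison, 306 of 27179 genes had a false discovery rate under 0.05. Of these 306, 249 were lower in ablated colon, and 5 of the 10 genes were among the 306. In that table Prph had a log2 fold change of -3.83, Ina of -3.65, Stmn3 of -3.48, Tubb3 of -1.97 and Stmn2 of -1.66. For Nefl, the authors' deposited table gives -1.72 with a false discovery rate of 0.0519, for Nefh -1.46 with 0.0829 and for Nefm -0.88 with 0.111. It gives 0.713 for Stmn4 and 0.726 for Stmn1.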

How the data were processed

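TPM values per gene were deposited by the authors for 12 libraries, 5 control and 7 ablated, as files per sample and as 1 table for the series; all 12 files were identical to the table. Libraries were strand-specific and made from polyadenylated RNA, per the labels' protocols. The submitters' processing notes name mm10, and bcl2fastq 2.17, HISAT and featureCounts; the strand setting and the other versions are not given in the sources used here. The authors' deposited edgeR table holds, per the file headers, log2 fold change, log2 CPM, a score (F), p-value and FDR; its design is not stated, and it is quoted only where named.

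TPM are not counts, so limma 3.58.1 in R 4.3.3 was fitted (with a trend) to log2(TPM + 0.5) for the 16164 genes that reached 0.5 TPM in 5 or more libraries. P-values were two-sided and adjusted by Benjamini and Hochberg over all of these genes; an adjusted p under 0.05 is called passing. Single ratios and shares were tested by exact permutation in Python 3.11.15. Scripts were tested on simulated data. Whole reads were recovered for 22840 of 22842 genes above 0 by searching a gene length of 20 to 30000 that makes every value whole within 0.05 read; mean log2 CPM then correlated with the authors' at r = 0.996 across genes, which are not independent replicates. Depth was 13.4 to 26.9 M reads, and low genes such as Ina were counted with few of them. Sequences came from RefSeq (GRCm38.p6), for 4 of the 10 genes, and gene positions from GENCODE on mm10.

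The genes, lists and tests were chosen with earlier results of these data known. All 10 genes, 5 reference genes and up to 4 passing genes per list (or the 2 with the smallest p) were named. For the members compared for likeness, which left out Nefh, Ina and Stmn4, the 3 most alike genes were named. A gene that these rules name is not reported here, and the reference mean and the neuron marker sum were computed without it. Alternatives changed the added constant (0.1, 1), the minimum (none, 1 TPM), the scaling, the variance model (no trend, library weights, voom on recovered reads), covariates (smooth muscle or epithelium score, library number as block) and the libraries, leaving out 1 at a time. Labels share library numbers 1 to 5, but residuals of same-numbered libraries correlated at -0.27 to 0.36, so the numbers were not taken as pairs. No library was left out of the main values.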

Additional observations from a re-analysis of the deposited data

Results flagged for a closer look

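Of the 34 sets of values checked (levels of each gene and family shares, per group), 4 held 1 library apart from the rest by Dixon's test at its 95% critical value, which chance alone does in about 1 of 20 sets. Ina was 0.329 TPM in ablated 5, the highest of the 7 libraries. Stmn3 was 1.68 TPM in ablated 2, the highest of the 7. In control 1 the Prph share of the 5 filament genes was 68.8%, the lowest of the 5 controls, and the Nefm share was 11.2%, the highest of the 5. Control 1 was also the shallowest control.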

How the results depend on the processing

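Prph, Tubb3, Stmn2 and Stmn3 kept their direction and their call in all 24 alternatives run. Ina kept both in 16 of the 17 in which it was tested, and it was untested when a control was left out or the minimum was 1 TPM. Nefl kept its direction in 24 and its call in 10 of 24. Nefm passed in 5 of 24, and Stmn1 and Stmn4 in none. Leaving out 1 library at a time gave 4 to 7 genes of the 10 as lower and 0 to 0 as higher, 8 to 10 passing pairs, 4 to 6 genes apart from the reference and 5 to 7 passing shares. Over all genes, 163 were lower and 68 higher; the counts were 59 to 201 and 17 to 128 without 1 library (59 without control 3; 128 without ablated 1), 983 and 883 with the epithelium score as a covariate, 438 and 654 with library weights, and 273 lower with no minimum. The cause was not tested.

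With the library number as a replicate block, 4 of the 10 genes passed as lower (Prph, Tubb3, Stmn2, Stmn3), 69 of all genes as lower and 15 as higher; Ina then had an adjusted p of 0.0515 and Nefl of 0.167. The calls of Mapk10 (0.208), Map7d2 (0.167), Dpysl5 (0.128), Kif5a (0.166), Ank2 (0.131) and Dst (0.227) were lost as well, and those of Scg2 and Gap43 were kept. Under this pairing 0 pairs, 0 genes against the reference and 0 shares passed, since 5 swapped pairs cannot give a p below 0.0625. Only 1 of 5 controls correlated best with its own number. Nefl against Ina, -0.03 in the test reported, was 1.07 with a constant of 0.1, 0.19 with the block, and between -0.17 and 0.0702 without 1 library, positive without control 1 (0.0092), 2 (0.0518) or 3 (0.0677) or ablated 1 (0.0312), 6 (0.0702) or 7 (0.0586). Against the reference, Ina was -0.47 with a constant of 0.1, and Tubb3, 0.03 in the test reported, was -0.12 with 1 and between -0.043 and 0.10 without 1 library (below 0 without control 1 or ablated 2, 3 or 6). Reads limit Ina (15 in ablated libraries), Nefh, Stmn3 and Stmn4 (under 100 each).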
